A study of Mus musculus with 11 samples.

Results

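Transcripts of 7 cytotoxic granule genes, Gzmb, Prf1, Gzma, Gzmc, Nkg7, Cst7 and Srgn, were followed through 11 samples of mouse acute myeloid leukaemia (AML). The 7 genes were picked by name from 55487 genes with counts, and each matched 1 Ensembl identifier. They were chosen with their levels in the Ifnar1 -/- against Ifnar1 +/- comparison already known, so their values in that comparison are given as a description, without a test. All 11 samples are labelled as AML with Flt3-ITD, an internal tandem duplication that activates the cytokine receptor gene Flt3, and with NHD13, the NUP98-HOXD13 fusion transgene. Of these, 6 were Ifnar1 +/- and 5 were Ifnar1 -/-, so that the control group also carried 1 disrupted copy of Ifnar1, the gene of a type I interferon receptor subunit, and both groups carried both leukaemia alleles. The series' design text speaks of haematopoietic progenitor cells, whereas the samples' source is AML. The sources used here give neither strain, age, sex, treatment and tissue sampled nor the promoter of the transgene, and do not say whether each library came from its own mouse, so the spread between libraries may in part be technical.

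Cytotoxic granules are secretory lysosomes best known from killer T cells and natural killer (NK) cells. Perforin, the product of Prf1, forms pores in the target membrane, and granzymes, which are serine proteases, enter the target cell and trigger its death. Serglycin, the product of Srgn, is the proteoglycan that holds granzymes and other cargo in the granule, in myeloid and mast cells as well as in lymphocytes. Cst7 encodes cystatin F, an inhibitor of the lysosomal cathepsins that activate granzymes, and Nkg7 encodes a granule membrane protein. In the mouse, mast cells can make granzyme B without perforin.

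In annotation release GENCODE M21 (GRCm38; the sources used here do not name the build behind the counts), Gzmb and Gzmc lie on the minus strand of chromosome 14, at 56258838 to 56262260 and 56231441 to 56234656, in a cluster of 7 granzyme genes. Prf1 is on chromosome 10, plus strand, at 61297833 to 61304680. Srgn is on the same chromosome, minus strand, at 62493833 to 62527451. Gzma is on chromosome 13, Nkg7 on chromosome 7 and Cst7 on chromosome 2. None of the 7 overlaps another annotated gene. Words of 50 bases from the annotated transcripts were shared with other genes only for Gzmc, at 4.14% of its words (with Gzme, Gzmg and Gzmd), so its reads can be split between these copies. No such word was shared for the other 6 genes.

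The 250 bases upstream of the RefSeq start sites of Gzmb, Prf1 and Gzmc are shown because Gzmb and Prf1 had different orders of levels across the libraries, and because Gzmc, the neighbour of Gzmb in the cluster, was almost silent. They are written 5′ to 3′ on the strand of the gene, with the matches to the motifs searched in capitals (GRCm38.p6).
Gzmb, chr14:56262335-56262584, minus strand: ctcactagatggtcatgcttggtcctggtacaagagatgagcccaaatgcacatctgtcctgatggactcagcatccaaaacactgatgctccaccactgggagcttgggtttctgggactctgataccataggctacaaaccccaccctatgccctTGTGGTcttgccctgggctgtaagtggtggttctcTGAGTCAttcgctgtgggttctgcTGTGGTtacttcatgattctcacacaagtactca
Prf1, chr10:61297586-61297835, plus strand: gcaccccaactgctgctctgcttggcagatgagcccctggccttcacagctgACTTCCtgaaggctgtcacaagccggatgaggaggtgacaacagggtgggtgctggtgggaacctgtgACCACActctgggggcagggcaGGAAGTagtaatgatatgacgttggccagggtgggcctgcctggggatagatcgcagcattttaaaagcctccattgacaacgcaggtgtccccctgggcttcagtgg
Gzmc, chr14:56234658-56234907, minus strand: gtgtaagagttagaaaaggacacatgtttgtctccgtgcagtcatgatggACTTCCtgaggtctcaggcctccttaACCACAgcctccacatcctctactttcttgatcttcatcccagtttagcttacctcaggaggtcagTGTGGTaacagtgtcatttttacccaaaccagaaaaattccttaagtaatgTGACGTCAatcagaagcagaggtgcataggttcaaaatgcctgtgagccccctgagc
In Gzmb the capitals mark 2 copies of the RUNX motif TGTGGT and 1 AP-1 motif, TGANTCA. In Prf1 they mark 1 RUNX motif, on the other strand, and 2 copies of the ETS motif GGAAGT, 1 on each strand. In Gzmc they mark 2 RUNX motifs, 1 on each strand, 1 ETS motif on the other strand and 1 cyclic AMP response element, TGACGTCA. The marked matches do not overlap each other.

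A total of 8 motifs was searched on both strands, and 7 of the 8 windows of the 7 genes (Srgn has 2 start sites) held TGTGGT, against 14.0% of all 32851 RefSeq windows of this length. GGAAGT was in 4 of the 8 windows and in 19.7% of all windows, TGANTCA in 1 and in 6.75%, and TGACGTCA in 1 and in 1.55%. The STAT motif TTCNNNGAA was found in 1 window, that of Nkg7, and in 7.02% of all. The interferon response core GAAANNGAA was in 2 windows, of Gzma and Srgn, and in 7.13% of all. The GATA motif AGATAA and the E-box CACGTG were in 0 of the 8 windows, and in 9.99% and 6.02% of all. These are matches of letters in a short window and show no binding. RefSeq and GENCODE M21 give different starts for the 3 genes shown, and the windows follow RefSeq.

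Library totals ran from 25583642 to 38728143 estimated counts. Levels are counts scaled to a common library total (CPM) and adjusted between libraries with TMM factors. The libraries differed widely in lineage transcripts. The summed level of 9 B-lineage markers was 5750 to 9058 CPM in Ifnar1 +/- libraries 3, 4 and 5 and Ifnar1 -/- libraries 3 and 5, and 11.6 to 121 CPM in the other 6. Mpo, the gene of the neutrophil and monocyte granule enzyme myeloperoxidase, had at most 53.6 CPM. Ifnar1 -/- library 2 stood apart with 47695 CPM of the eosinophil granule gene Prg2.

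Gzmb, the granzyme B gene, was the most variable of the granule genes, with 7.58 CPM at its lower end and 6252 CPM at its upper end. In order of their numbers, the Ifnar1 +/- libraries held 6252, 1123, 78.0, 361, 7.58 and 4866 CPM of it. The Ifnar1 -/- libraries held 189, 14.8, 15.7, 1302 and 185 CPM. Ifnar1 +/- libraries 1 and 6 were the highest, but Ifnar1 +/- library 5 was the lowest of all 11, and all 5 Ifnar1 -/- levels lay within the Ifnar1 +/- range. Of the 5 libraries with the least Gzmb, 4 were among the 5 with the highest B-lineage sums. The Gzmb levels rested on 287 to 155157 counts per library, so that counting error was small beside the spread between libraries. The mean level for Ifnar1 +/- AML was 2115 ± 2733 CPM (SD, n = 6), and for Ifnar1 -/- AML it was 341 ± 544 CPM (SD, n = 5). The log2 fold change, Ifnar1 -/- against Ifnar1 +/-, came to -2.63 (SE 1.61). It was -4.39 without Ifnar1 -/- library 4 and -1.92 without Ifnar1 +/- library 1. In limma voom with quality weights, which weighs the libraries unequally, the sign turned (0.68).

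Prf1, the perforin gene, was expressed at low levels. The Ifnar1 +/- libraries, by number, held 38.4, 8.22, 5.47, 7.49, 6.66 and 1.85 CPM, and the Ifnar1 -/- libraries 1.95, 0.413, 0.645, 0.922 and 0.224 CPM. The groups overlapped only through Ifnar1 +/- library 6, which was just under Ifnar1 -/- library 1. The Ifnar1 +/- libraries had 57 to 952 counts and the Ifnar1 -/- libraries 7 to 63, so the lowest values rest on few reads. The mean level was 11.3 ± 13.4 CPM (SD, n = 6) against 0.830 ± 0.676 CPM (SD, n = 5), and the log2 fold change was -3.76 (SE 0.87). It was -2.83 without Ifnar1 +/- library 1 and -4.35 without Ifnar1 -/- library 1. As the difference of mean log2(CPM + 1) it was -2.32, a scale that understates the change of low genes. In bulk RNA a lower level can come from fewer cells that express the gene or from less RNA in each, and these cannot be told apart.

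**Figure D1:**
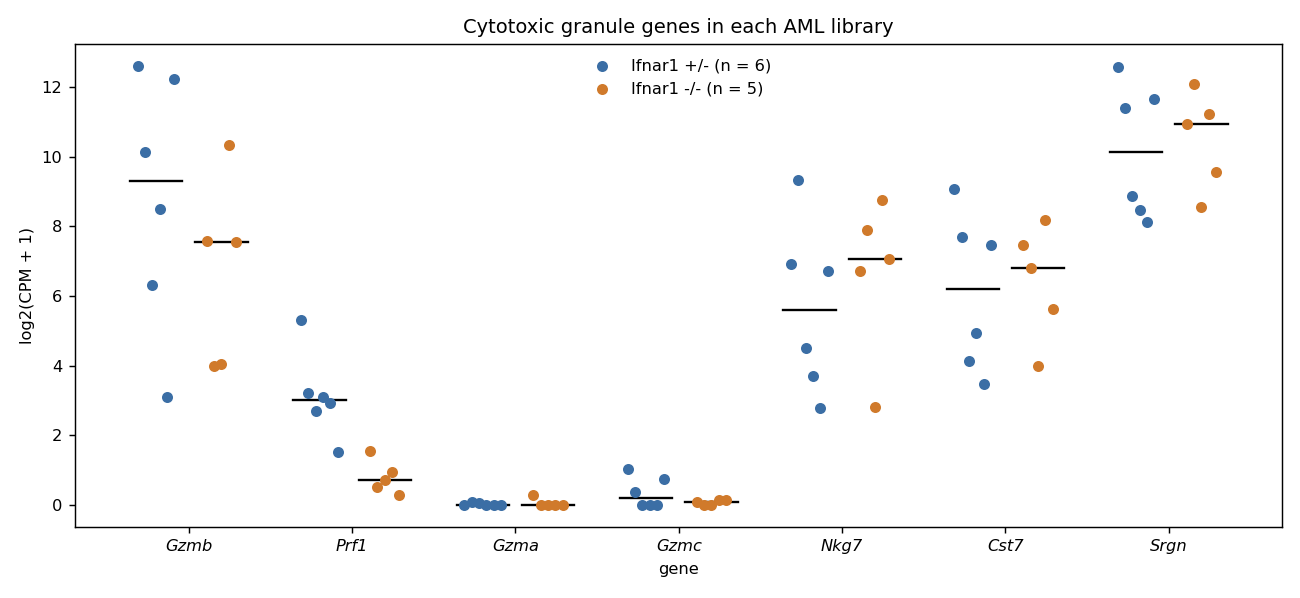
Level of each of the 7 granule genes on a log2(CPM + 1) scale (vertical axis) in 6 Ifnar1 +/- (blue) and 5 Ifnar1 -/- (orange) libraries; each point is 1 library and each black bar the group's median. Gzmb, Nkg7, Cst7 and Srgn spread widely in both groups, Prf1 is low with a single crossing between the groups, and Gzma and Gzmc lie at or near 0.

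Granzyme B transcript exceeded perforin transcript in every library, by a factor that was far from constant. Per kilobase of annotated exon, Gzmb had 293, 246, 25.7, 86.7, 2.05 and 4731 times the level of Prf1 in the Ifnar1 +/- libraries, by number. Across the Ifnar1 -/- libraries the ratio was 174.5, 64.6, 43.8, 2542 and 1488. The highest ratio, in Ifnar1 +/- library 6, and the lowest, in Ifnar1 +/- library 5, were in the same genotype. Averaged over the 11 libraries, the level per kilobase was 911 CPM for Gzmb and 951 CPM for Srgn. It was 2.54 CPM for Prf1, 181 CPM for Nkg7 and 149 CPM for Cst7.

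The other granzymes were close to silent. Gzma, which encodes granzyme A, a protease of killer T and NK cells, had 10 counts in all over the 11 libraries, 7 of them in Ifnar1 -/- library 1, and 0 in 8 libraries. A count of 0 allows a level of up to 0.0724 to 0.155 CPM, depending on the library, counting error only. Gzmc reached 1.05 CPM in Ifnar1 +/- library 1, 0.301 CPM in library 2 and 0.682 CPM in library 6, was at 0 in 5 libraries, and had at most 0.111 CPM in Ifnar1 -/- AML. Of the 7 remaining granzyme genes, Gzmd was highest, at 3.27 CPM in Ifnar1 +/- library 2, and Gzme and Gzmm had at most 0.434 and 0.722 CPM. A total of 6 of these 7 stayed under 1 CPM in every library, and Gzmn was at 0 throughout. None of the 7, and neither Gzma nor Gzmc, had enough counts to be tested.

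Srgn, the serglycin gene, was abundant in every library. By number, its level was 6083, 2695, 472, 356, 277 and 3218 CPM across Ifnar1 +/- and 1963, 4362, 378, 2404 and 759 CPM across Ifnar1 -/- libraries. The lowest 5 libraries were the same 5 that had the highest B-lineage sums, and they came from both genotypes. The group means, 2184 ± 2299 CPM (SD, n = 6) and 1973 ± 1574 CPM (SD, n = 5), lay within each other's spread, with a log2 fold change of -0.15 (SE 0.88) whose sign turned without Ifnar1 +/- library 1 (0.49), without Ifnar1 -/- library 3 (0.12) and without Ifnar1 -/- library 5 (0.06).

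Cst7, the cystatin F gene, followed the same split of libraries. By number, its level was 535, 207, 16.5, 29.6, 10.1 and 177 CPM across Ifnar1 +/- and 176, 110, 15.0, 290 and 48.1 CPM across Ifnar1 -/- libraries. Its lowest 5 libraries were again the 5 with the highest B-lineage sums. The log2 fold change was -0.35 (SE 1.03), and 0.54 without Ifnar1 +/- library 1. Nkg7 stood at 121, 638, 21.9, 12.1, 5.89 and 103 CPM across Ifnar1 +/- and at 105, 237, 5.98, 434 and 132 CPM across Ifnar1 -/- libraries. Here Ifnar1 +/- library 2 was highest, and 4 of the lowest 5 libraries were among the 5 with the highest B-lineage sums. Its log2 fold change was 0.28 (SE 1.19), 1.79 without Ifnar1 +/- library 2, -0.34 without Ifnar1 -/- library 4 and 2.52 in limma voom.

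Across the table, edgeR's quasi-likelihood test called 0 of 14521 genes between the genotypes at an adjusted p under 0.05 (0.00%), with 289 genes at an unadjusted p under 0.05. Of the 7 granule genes 5 could be tested, and 0 of them were called. DESeq2 called 3 of the 14061 genes to which it gave an adjusted p (0.0213%), and Prf1 was 1 of these 3; limma voom called 0 (0.00%). None of the 5 had groups without overlap, which 0.124% of all tested genes had (0.0758% with the Ifnar1 -/- group lower). Because these genes were chosen with this comparison known, nothing is read from these counts. The median log2 fold change was -0.35 over the 5 and -0.02 over all 14521 genes.

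**Figure D2:**
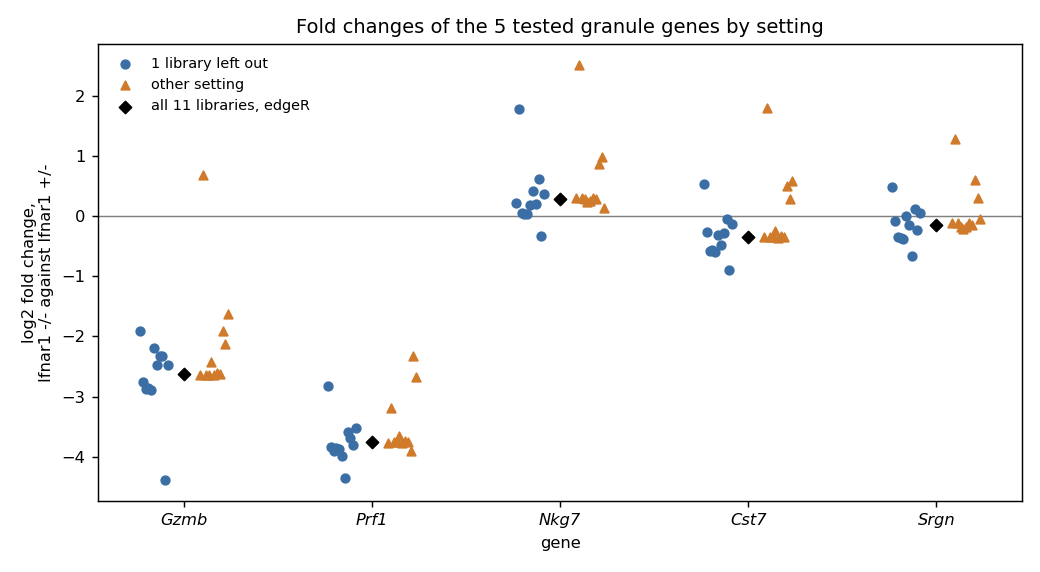
Log2 fold change of Ifnar1 -/- against Ifnar1 +/- (vertical axis) for the 5 tested granule genes, with all 11 libraries in edgeR (black), with each library left out in turn (blue circles) and under the other settings (orange triangles). Prf1 stays below 0 at every setting shown, Gzmb stays below 0 except in limma voom, and Nkg7, Cst7 and Srgn lie on both sides of 0.

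Marker genes of other cell types were set beside these levels. Cd3e, the T cell receptor complex gene named for this purpose, stood at 0.242, 0.134, 0.036, 0.036, 0.193 and 0.357 CPM across Ifnar1 +/- and at 0.062, 0.052, 0, 0.258 and 0.032 CPM across Ifnar1 -/- libraries. These values are at most 11 counts per library. The NK cell receptor genes Ncr1 and Klrk1 had at most 7 and 5 counts, and Tbx21 and Eomes, the transcription factor genes of killer lymphocytes, at most 3 and 1. These 5 genes were at or near 0 in all 11 libraries, those with the most Gzmb included. Other genes found in such cells were not. The NK receptor gene Klrb1c reached 60.2 CPM in Ifnar1 +/- library 4, where Gzmb was 361 CPM, and had 1.21 CPM in Ifnar1 +/- library 1. Ifnar1 +/- library 2 had 10.8 CPM of the interleukin 2 receptor gene Il2rb and 41.7 CPM of Ctsw, a cathepsin gene of killer lymphocytes. Ctsw was also at 29.5 and 17.3 CPM in Ifnar1 -/- libraries 4 and 1 and at 10.2 CPM in Ifnar1 +/- library 6. It was at 1.33 CPM in Ifnar1 +/- library 1, which had the most Gzmb.

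The broader T cell list was not silent. Summed over 16 genes it was 174 to 904 CPM in Ifnar1 +/- and 37.9 to 557 CPM in Ifnar1 -/- AML, with 5 of the 16 under 1 CPM in every library. Its most abundant genes on average were the signalling genes Lat and Lck and Trac, the T cell receptor alpha constant gene. Lck had 95.4 to 452 CPM in the 5 libraries with the highest B-lineage sums and at most 69.4 CPM in the others. The highest sum of the T cell list, 904 CPM, was in Ifnar1 +/- library 3, which also had the highest B-lineage sum. Trac stood at 4.19, 289, 3.35, 0.436, 0.628 and 27.0 CPM across Ifnar1 +/- and at 164.5, 2.37, 0.824, 184 and 48.9 CPM across Ifnar1 -/- libraries. It was thus high in Ifnar1 +/- library 2 and Ifnar1 -/- library 4, which had much Gzmb, and low in Ifnar1 +/- library 1, which had the most. Its rho with Gzmb over the 11 libraries was 0.53. Zap70, of the same list, had 102 and 73.3 CPM in Ifnar1 +/- library 2 and Ifnar1 -/- library 4 but 8.54 CPM in Ifnar1 +/- library 1. Cd247 reached 14.1 CPM in Ifnar1 -/- library 4. Their rho with Gzmb was 0.09 and -0.03. Cd3d and Cd3g, other genes of the T cell receptor complex, had 18.4 and 5.99 CPM in Ifnar1 -/- library 2, where Gzmb was 14.8 CPM. Of 12 NK cell genes 7 stayed under 1 CPM in every library, and the list's sum of 8.46 to 316 CPM in Ifnar1 +/- and 39.2 to 2727 CPM in Ifnar1 -/- AML had Tyrobp, an adaptor gene of myeloid cells as well, as its most abundant gene on average. Of 9 plasmacytoid dendritic cell genes, Siglech and Klk1 were at 0 in every library, and the sum was 181 to 570 CPM in Ifnar1 +/- and 190 to 473 CPM in Ifnar1 -/- AML. Spib, of that list, had 170 to 333 CPM in the 5 libraries with the highest B-lineage sums and at most 3.14 CPM in the others. Lag3, of the same list, had 46.4, 75.6 and 24.4 CPM in Ifnar1 +/- libraries 1, 2 and 6 and 59.4 CPM in Ifnar1 -/- library 4. The rho of Lag3 with Gzmb was 0.84, against 0.255 for Tcf4, which had 147.5 to 338 CPM. Ifnar1 +/- library 1, the library with the most Prf1, also had 23.2 CPM of the chemokine gene Xcl1 and 2.50 CPM of the NK receptor gene Klrd1, which were chosen after their values were seen, and Klrd1 had at most 0.1 CPM elsewhere. The part of T or NK cells in the levels of Gzmb and Prf1 was not tested.

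Most mast cell and basophil genes of the list, but not its basophil protease genes, ran with Gzmb. Cpa3, the mast cell carboxypeptidase gene, stood at 3752, 360, 8.28, 552, 57.4 and 469 CPM across Ifnar1 +/- and at 121, 34.0, 28.4, 1228 and 101 CPM across Ifnar1 -/- libraries. The 5 libraries with the most Gzmb were also the 5 with the most Cpa3, and the 5 with the most Fcer1a, which encodes the alpha chain of the high-affinity IgE receptor. Only 3 of these 5 were among the 5 with the most Prf1. All of these 5 libraries but Ifnar1 +/- library 4 were also among the 5 with the most Cd3e, at 4 to 11 counts. Hdc, the gene of the histamine-forming enzyme and the most abundant of the list, stood at 4673, 3702, 76.2, 119, 81.2 and 1444 CPM across Ifnar1 +/- and at 895, 1554, 91.8, 2966 and 347 CPM across Ifnar1 -/- libraries, so that it was high in Ifnar1 -/- library 2, where Gzmb was low. The basophil protease gene Prss34 was highest in Ifnar1 -/- library 3 (217 CPM) and Ifnar1 +/- library 5 (192 CPM), which had little Gzmb. It also had 82.6 and 108 CPM in Ifnar1 +/- libraries 1 and 2, which had much Gzmb. Mcpt8, likewise a basophil protease gene, was highest in Ifnar1 +/- library 2 (140 CPM), followed by Ifnar1 -/- library 3 (83.8 CPM). Summed over 15 mast cell and basophil genes, the level was 225 to 15752 CPM in Ifnar1 +/- and 546 to 10020 CPM in Ifnar1 -/- AML, and no gene of the list was at 0 throughout. Over all tested genes, 51.7% had lower fitted values in Ifnar1 -/- AML. The 14 tested genes of the list all did (median log2 fold change -0.58), with values as close to 0 as -0.001. The median was, however, 0.11 without Ifnar1 +/- library 1 and -1.96 without Ifnar1 -/- library 4. None of them was called, and Cpa3 had -1.52 (SE 1.41, edgeR adjusted p = 0.9998). The part of mast cell content in the levels of Gzmb was not tested.

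**Figure D3:**
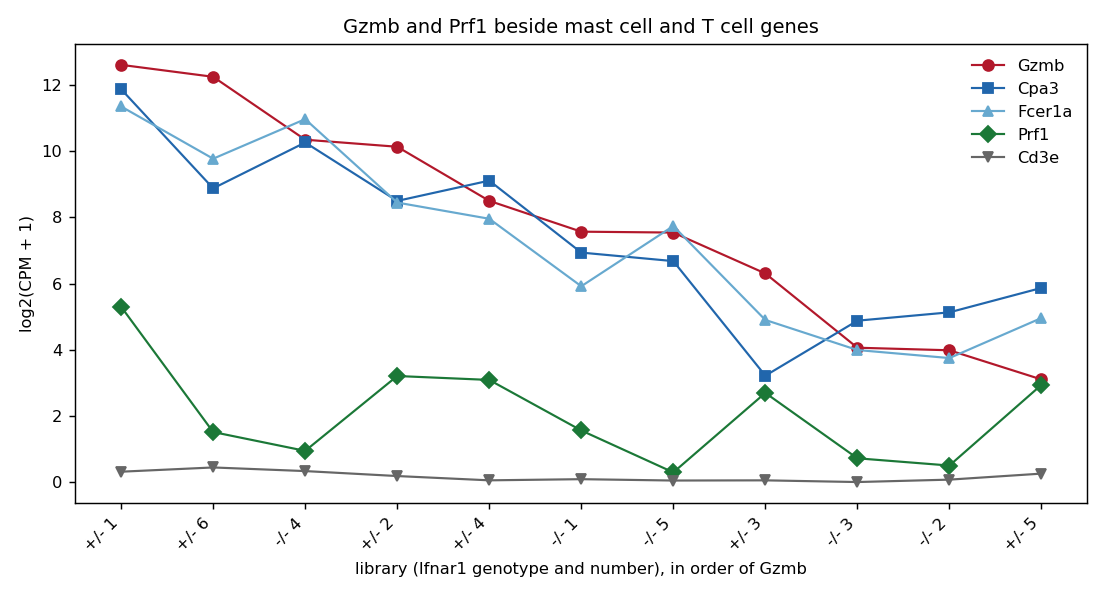
Levels of Gzmb, Prf1, the mast cell genes Cpa3 and Fcer1a and the T cell gene Cd3e on a log2(CPM + 1) scale (vertical axis) in the 11 libraries, placed in falling order of Gzmb; lines only join the points of a gene. Cpa3 and Fcer1a are highest in the 5 libraries with the most Gzmb. Both are higher in Ifnar1 +/- library 5, which has the least Gzmb, than in Ifnar1 -/- libraries 2 and 3. Prf1 does not fall along with Gzmb, and Cd3e stays near 0.

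The likeness of patterns was measured by Spearman's rho of log2(CPM + 1) over the 11 libraries, as a description, since the libraries share large lineage differences. Among 12133 tested genes with established symbols, the most like Gzmb were Tusc3 (rho 0.97), Antxr1 (0.96), the C-type lectin gene Clec10a (0.96), Fam3c (0.95) and Fndc8 (0.95). Of the 14 tested mast cell and basophil genes, 12 had a rho above 0, of 0.59 to 0.95. Among them Tph1, which encodes the enzyme that starts serotonin synthesis outside neurons, ranked 6th, Fcer1a 18th (0.93), Cpa3 128th (0.86) and Hdc 962nd (0.69). The other 2 were the basophil protease genes Mcpt8 (-0.05) and Prss34 (-0.45). Some genes of other lists ran as closely with Gzmb as Cpa3 did: Ctsb ranked 98th (0.88) and Serpina3f 140th (0.86). Il2rg ranked 279th (0.82), whereas Lck (-0.44) and the B-lineage gene Cd79a (-0.61) ran against Gzmb. Cst7 ranked 178th (0.85), Srgn 1694th (0.57) and Prf1 only 3055th (0.40). Among the genes most like Prf1 were Lrrc58 (0.88), the ubiquitin ligase gene G2e3 (0.82), Ube2g1 (0.82) and Arf4 (0.80). Gzmb ranked 807th and Cpa3 583rd for Prf1.

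Other genes of the granule pathway, listed by role, gave 0 calls in either direction. All 7 protease and granzyme-processing genes were tested. Ctsc, the cathepsin that activates granzymes, had 73.4, 232 and 1959 CPM as the lowest, median and highest Ifnar1 +/- levels and 115, 131 and 392 CPM as those of Ifnar1 -/- AML. Its log2 fold change came to -1.45 (SE 0.81, edgeR adjusted p = 0.9998). The highest level was in Ifnar1 +/- library 1, where Gzmb and Prf1 were highest too. Ctsb and Ctsd, general lysosomal cathepsin genes, reached 943 and 3180 CPM. The median log2 fold change of this list was 0.10, and it ran from -0.58 to 0.35 when single libraries were left out.

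The most abundant genes of granule traffic and exocytosis were present in every library, including those with little Gzmb. Of 17 listed genes 16 were tested (Vamp7 was not analysed here). Stxbp2, which encodes a syntaxin-binding protein needed for granule release, had 137 to 301 CPM in Ifnar1 +/- and 175 to 690 CPM in Ifnar1 -/- AML. Vamp8, a granule fusion protein gene, had 144 to 547 and 137 to 682 CPM, and Lamp2, a lysosomal membrane protein gene, 46.6 to 338 and 57.5 to 379 CPM. The highest Ifnar1 -/- level of all 3 was in library 2. Of the 16, 12 had higher fitted values in Ifnar1 -/- AML, with a median log2 fold change of 0.44, and -0.08 without Ifnar1 -/- library 2. Over all tested genes, 51.7% had lower fitted values.

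The list of granzyme inhibitors held genes of the serpin family, some of them abundant. Not all of these are established inhibitors of granzymes. Serpina3g had 30.6, 478 and 2607 CPM as the lowest, median and highest Ifnar1 +/- levels and 25.6, 337 and 1376 CPM in Ifnar1 -/- AML. Serpina3f reached 670 and 285 CPM, and Serpinb6a 208 and 156 CPM, in the same order. The highest levels of the 3 were in Ifnar1 +/- library 1 and Ifnar1 -/- library 4, the libraries with the most Gzmb in each genotype. Serpinb9, of the same list, had 3.02 to 58.6 CPM in Ifnar1 +/- and 0.155 to 38.6 CPM in Ifnar1 -/- AML. The rho of Serpinb9 with Gzmb was 0.84. All 5 tested members of the list had lower fitted values in Ifnar1 -/- AML, as had 51.7% of all tested genes. The median log2 fold change of the list was -0.34 and the value closest to 0 was -0.025, but the median was 0.38 without Ifnar1 +/- library 1. Some serpin genes have close copies that can share reads, which makes the value of any one gene uncertain.

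Among regulators of the cytotoxic programme, 13 of 16 were tested. The most abundant were Il2rg, the shared gamma chain gene of the interleukin receptors, with 141.5 to 979 and 101 to 1467 CPM, and Id2, a transcription factor inhibitor gene, with 110 to 1653 and 79.2 to 597 CPM. Il2ra, the interleukin 2 receptor alpha chain gene, had 6.34 to 300 and 4.23 to 194 CPM. The ranges of the genotypes overlapped for all 3, and the list's median log2 fold change was 0.07, or -0.05 to 0.35 with single libraries left out.

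The list of other cytotoxic effectors and chemokines had 6 of 9 tested, all with lower fitted values in Ifnar1 -/- AML, as had 51.7% of all tested genes. The median log2 fold change of the list was -0.52, and it ran from -1.53 to -0.16 when single libraries were left out. It was 0.04 without Ifnar1 +/- library 1 and Ifnar1 -/- library 2 together, a setting chosen after seeing the data. Ccl5, a chemokine gene of killer cells and platelets, had 0.459 to 145 and 0.215 to 99.9 CPM, and Ccl4 0.972 to 103 and 4.91 to 128 CPM. Lta, a lymphotoxin gene, was highest at 158 CPM in Ifnar1 +/- library 5, the library with the least Gzmb.

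**Figure D4:**
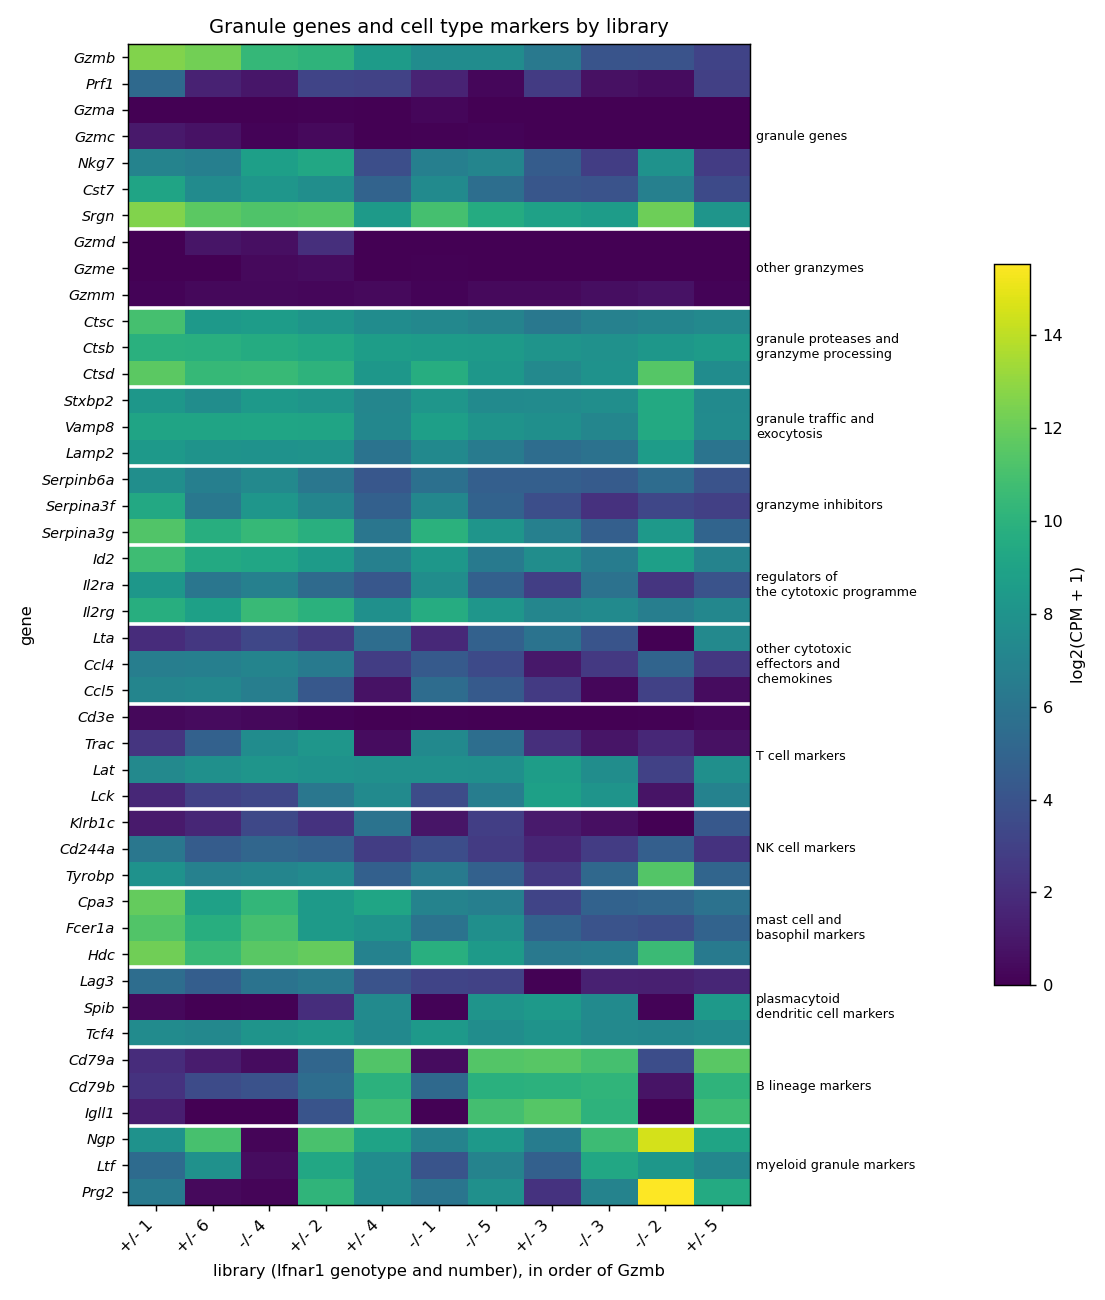
Level on a log2(CPM + 1) scale (colour) of the 7 granule genes and of the 3 most abundant genes of each list, plus Cd3e, in rows, over the 11 libraries in falling order of Gzmb. Serpins, Cpa3 and Fcer1a are brighter towards the left with Gzmb, B-lineage genes are bright in 5 libraries, and Cd3e, Gzma, Gzme and Gzmm are dark throughout.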

How the data were processed

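Per the labels' protocols, a Qiagen micro kit gave the RNA and a Clontech kit the libraries. The authors deposited 1 table of estimated counts per gene, not scaled between samples (10.0% to 11.3% of values per library had decimals). For the reads, bcl2fastq and DRAGEN are named in the submitters' processing notes, without versions or roles. Of 55774 rows, 287 identical copies were dropped. Symbols came from a reference table (55141 of 55487 identifiers matched).

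After rounding to whole numbers, genotypes were compared by edgeR 4.0.16 (R 4.3.3, filterByExpr, TMM factors, glmQLFit with robust=TRUE, Benjamini-Hochberg adjustment, threshold 0.05), two-sided, with SE as the absolute log2 fold change over the square root of F. The steps were tested on simulated data. Groups follow the labelled genotype, and numbers are those in the sample titles. Alternatives were DESeq2 1.42.0, limma 3.58.1 voom, other scalings and filters, robust=FALSE, a replicate block and leaving out libraries. Intervals and limits of 3 counts cover counting error only. Genes other than the 7 are the 3 most abundant of each list, Cd3e, and the 5 most alike to Gzmb and to Prf1, of which 1 is not reported here. Mpo, Tph1, Ncr1, Klrk1, Tbx21, Eomes, Siglech, Klk1, Gzmn, Il2rb, Ctsw, Mcpt8, Prss34, Xcl1 and Klrd1 fall outside this rule and were named after their values were seen. The same holds for Serpinb9, Zap70, Cd247, Cd3d and Cd3g. The members and lists were chosen with earlier results of these data known. Promoter sequences are RefSeq's (GRCm38.p6), matched by symbol for all 7 genes.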

Additional observations from a re-analysis of the deposited data

Results flagged for a closer look

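In 8 of 18 gene and genotype groups checked (the 7 granule genes, Cd3e and Cpa3), 1 library lay farther from the others than Dixon's 95% limit on CPM. Chance flags about 1 in 20 groups only where values are normally distributed and groups independent. The CPM values here were skewed and the genes share libraries, so the number of flags cannot be set against that rate. In Ifnar1 -/- library 4, Gzmb was 1302 CPM with the next at 189, Cpa3 was 1228 CPM with the next at 121, and Cd3e was 0.258 CPM with the next at 0.062. In Ifnar1 +/- library 1, Prf1 was 38.4 CPM with the next at 8.22, Cst7 was 535 CPM with the next at 207, and Cpa3 was 3752 CPM with the next at 552. Nkg7 was 638 CPM in Ifnar1 +/- library 2 with the next at 121. Gzma was 0.216 CPM in Ifnar1 -/- library 1 and 0 in the other Ifnar1 -/- libraries. The flags for Cd3e and Gzma rest on 7 counts each.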

How the results depend on the processing

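The count of genes called was 0 in edgeR with DESeq2 size factors or upper-quartile factors, with both other filters, with robust=FALSE and without any 1 library, and 0 in limma voom; DESeq2 called 3. Prf1 kept a negative log2 fold change in all 22 alternatives (-4.35 to -2.83 with 1 library left out, -2.32 as a difference of mean log2(CPM + 1), -2.67 without Ifnar1 +/- library 1 and Ifnar1 -/- library 2 together, a setting chosen after seeing the data). Gzmb kept its sign in 21 of 22 (-4.39 to -1.92 with 1 library left out) and was 0.68 in limma voom. In limma voom Nkg7 was 2.52, Cst7 1.79 and Srgn 1.28; as a difference of mean log2(CPM + 1) they were 0.98, 0.28 and 0.30; Cst7 was 0.58 without that pair of libraries. With 1 library left out, Nkg7 ran from -0.34 to 1.79, Cst7 from -0.90 to 0.54 and Srgn from -0.66 to 0.49, with Srgn at 0.12 and 0.06 without Ifnar1 -/- libraries 3 and 5. The cause of these shifts was not tested.

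List medians ran, with 1 library left out, from -0.577 to 0.354 for proteases, -0.077 to 0.641 for traffic, -1.051 to 0.376 for inhibitors, -0.054 to 0.354 for regulators, -1.534 to -0.157 for other effectors and -1.964 to 0.113 for mast cell and basophil genes. Of these 6 medians, only that of other effectors kept its sign; no median was tested. Without that pair of libraries proteases were at -0.083, inhibitors at 0.461, other effectors at 0.041 and mast cell and basophil genes at 0.173.

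With the replicate block Gzmb was -1.91, Prf1 -3.90, Nkg7 0.86, Cst7 0.50 and Srgn 0.60, and 0 genes were called. The labels do not say whether the title numbers pair the samples. Deviations of same-numbered libraries correlated from -0.58 (number 4) to 0.63 (number 3). These values cannot decide the question, since the libraries also differ widely in lineage transcripts.

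Few reads limit Gzma, Gzmc and the low Prf1 values.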
